A study of Homo sapiens with 2 samples.

Results

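The genes described here encode the chaperones of the cytosol and the mitochondria, with their cochaperones and heat shock factors, as measured in PC-3 cells with and without a knockdown of SHISA2. The list of 42 genes was chosen with earlier results of these data known. Each gene was read on the probe sets annotated to it alone. Of the 42, 39 had a measured probe set, among 12931 measured genes in all. TCP1 was listed only on 3 probe sets that name several genes, and AHSA1 and HSF2 were not analysed here, so these 3 members have no value.

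PC-3 is an established human prostate cancer line derived from a metastasis in bone and able to grow without androgen. One array was hybridised with RNA of PC-3 cells given a control short hairpin RNA (shRNA) vector (siCONTROL), and the other with RNA of PC-3 cells given a vector against SHISA2 (siSHISA2). How many hairpin sequences were used, and whether the cells were a pool or a clone, is not stated in the labels. The comparison asks which transcripts differ with the knockdown. There was 1 array per group and no replicate, so no difference below was tested, the error between cultures is unknown, and precision is limited by the number of arrays.

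Chaperones bind unfolded proteins and help them fold. The HSP70 and HSP90 machines work with J proteins, which deliver clients, and with cochaperones, which set the pace of the ATPase cycle or hand clients on. Prefoldin passes actin and tubulin chains to the CCT ring, a closed chamber in which they fold, and a related chamber of HSPD1 and HSPE1 serves the mitochondrial matrix. In stressed cells the heat shock factor HSF1 binds repeats of the letters GAA and its reverse complement TTC in promoters and raises the inducible chaperones, while CCT and prefoldin chiefly serve newly made proteins.

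All values are probe-set signals in MAS5 units, paired signals are given with the control first, and every ratio is knockdown over control on the log2 scale. A probe set counted as measured when its higher signal exceeded 47.9, the median of all signals, and the brightest probe set stood for each gene. SHISA2 itself read 3536 in control and 1506 in knockdown, a log2 ratio of -1.23. The knockdown array had ratios of 3' to 5' signal of 4.79 for ACTB and 1.36 for GAPDH, against 5.0 and 1.55 in the control. Of 5 epithelial markers KRT8, KRT18 and EPCAM were measured, while CDH1 and KRT19 were under the floor, and the signal summed over all 5 was 20994 against 19855. For the markers of other cells the sums likewise run over each whole list, genes under the floor included. Measured were 1 of 5 leukocyte genes (list sum 70.8 against 95.2), 2 of 4 endothelial genes (279.7 against 400.4), 2 of 5 fibroblast genes (888.6 against 705.4), 2 of 4 neuroendocrine genes (465.3 against 362.2) and 2 of 5 prostate luminal genes (275.4 against 338.9), with PTPRC, VWF and COL3A1 under the floor. Their part in the results below was not tested, and in RNA of whole cultures fewer cells of a type and less RNA per cell cannot be told apart.

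Chaperone transcripts were slightly more abundant in the knockdown array across most of the list. Of the 39 measured members 37 had a log2 ratio above 0, against 52.2% of all measured genes, and the median was 0.12 against 0.01 over all of them. The differences were small. At least 1.2-fold higher were 6 members, HSPB8, CRYAB, STUB1, HSF1, CDC37 and BAG3, or 15.4% of 39, near the 16.6% of all measured genes, and 1 member, STIP1, was at least 1.2-fold lower, against 15.5% of all. Of the 37 members with both signals above 387.3, the 75th percentile of all signals, 4 were that much higher (10.8%, against 7.65% of such genes) and 1 was that much lower (against 10.4%). Only HSPB8 reached 1.5-fold, a size passed by 4.94% of all measured genes on the higher and 3.71% on the lower side, and no member reached 2-fold.

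**Figure D1:**
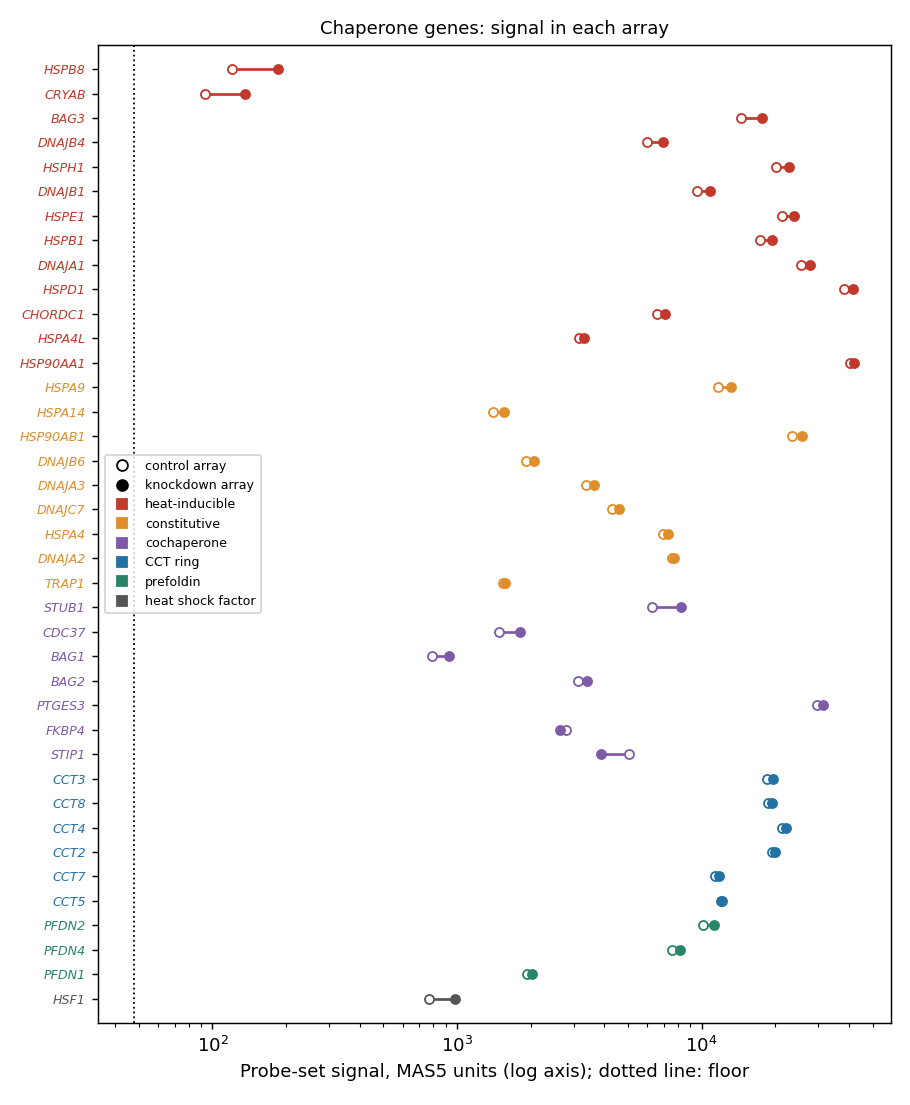
Signal of each measured chaperone gene in the control array (open circles) and the knockdown array (filled circles), on a log axis in MAS5 units, grouped and coloured by class, with the floor of 47.9 dotted. The filled circle lies to the right for 37 of 39 genes, and to the left for FKBP4 and STIP1.

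Most of the list is very bright, which bears on how such small ratios can be read. The brightest decile of all measured genes held 24 of the 39 members. In that decile 61.6% of genes lay above 0, their median was 0.04, and 4.95% passed 1.2-fold on the higher side and 3.48% on the lower side. When a smooth trend of the ratio on signal (loess) was removed, 33 of 39 members stayed above 0 with a median of 0.09, against 50.2% of all genes. After quantile normalization 29 of 39 did, against 50.1%, with a median of 0.10.

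**Figure D2:**
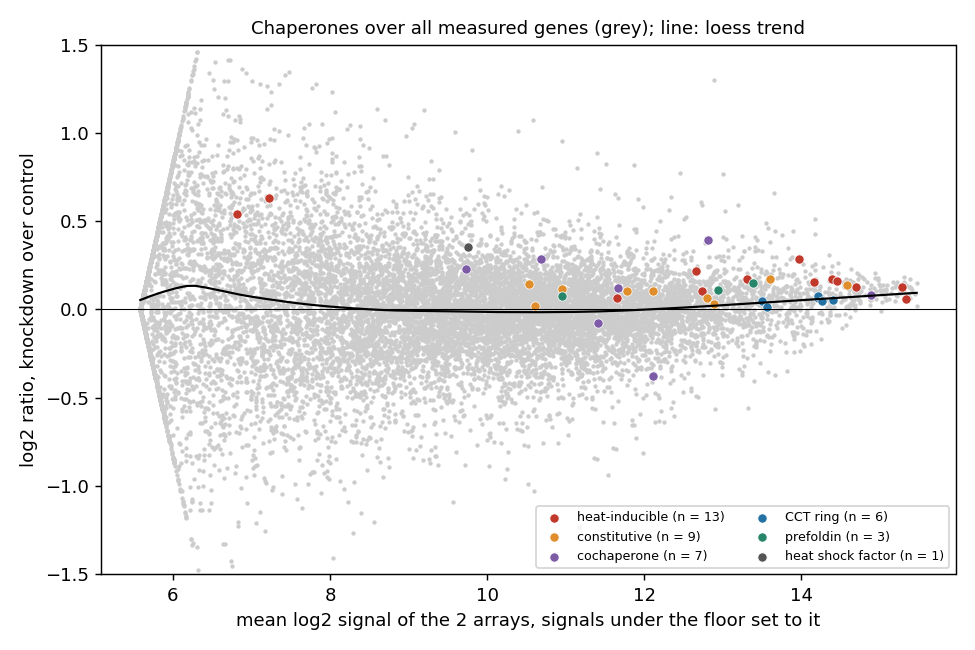
Log2 ratio of knockdown over control against mean log2 signal for all 12931 measured genes (grey) and the 39 chaperone genes (coloured by class), with the loess trend as a line; the vertical axis is cut at 1.5 in either direction. The trend rises at the bright end, where the CCT genes lie within 0.03 of it and most heat-inducible genes lie above it.

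A yardstick for a single ratio is the disagreement between probe sets of a gene in the same 2 hybridisations. The SD of the difference between the brightest and the next probe set, divided by the square root of 2, was 0.284 over 6428 genes and 0.234 over 27 members. With the floor raised to 387.3 it was 0.155 over 3088 genes and 0.164 over 20 members. It leaves out any variation between cultures and arrays.

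Promoter sequences are shown for some of the members whose window holds the heat shock factor letters, to set the classes side by side at the sequence level. The windows are RefSeq's (GRCh38.p14), from 250 bases before to 50 after each listed start, and 36 of the 42 members have one or more. The short motifs searched were GAANNTTC and TTCNNGAA, each its own reverse complement, and the long ones GAANNTTCNNGAA and TTCNNGAANNTTC, which are reverse complements of each other and contain the short ones, so both strands were covered. Over all 35116 windows of this length 13.5% hold a short motif and 0.490% a long one. Counted by gene, 6 of the 36 members (16.7%) have a long motif in at least 1 window, against 0.608% of 27305 genes. These members are CHORDC1, HSP90AA1, DNAJA1 and HSPD1 of the heat-inducible class and HSP90AB1 and DNAJB6 of the constitutive class. The stretches below run 5' to 3' on the gene's strand, with the long motifs in capitals.

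CHORDC1: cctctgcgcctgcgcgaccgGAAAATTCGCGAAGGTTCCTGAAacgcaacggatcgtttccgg
HSP90AA1: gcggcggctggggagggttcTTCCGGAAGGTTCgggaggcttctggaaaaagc
HSP90AB1: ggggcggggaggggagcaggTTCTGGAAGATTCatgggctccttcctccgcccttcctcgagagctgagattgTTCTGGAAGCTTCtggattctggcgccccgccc
DNAJB6: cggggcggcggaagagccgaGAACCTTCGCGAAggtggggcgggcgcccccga
HSPD1: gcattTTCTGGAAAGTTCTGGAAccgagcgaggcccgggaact
DNAJA1: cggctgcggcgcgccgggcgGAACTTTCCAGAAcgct

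The CHORDC1 stretch lies at chr11:90223067-90223129 on the minus strand and holds 3 overlapping long motifs, which run from base -60 to base -38 before the start. That of HSP90AA1 is at chr14:102087100-102087152, minus strand, with its motif at -88 to -76. The HSP90AB1 stretch, at chr6:44247758-44247863 on the plus strand, holds 2 separate long motifs between -165 and -100. The one of DNAJB6 is at chr7:157336853-157336905, plus strand, with the motif at -131 to -119. The HSPD1 stretch, at chr2:197500048-197500090 on the minus strand, holds 2 overlapping motifs from -245 to -228 before one of its listed starts. This is not the HSPD1 start nearest to HSPE1, and the motifs lie downstream of that nearest start. The DNAJA1 stretch is at chr9:33025256-33025292 on the plus strand, and its motif lies just after the start, at bases 4 to 16.

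Other members have only the short motif in their windows. Of these DNAJB1, HSPB8, HSPB1 and, from the CCT ring, CCT2 are shown as examples, with it in capitals, for comparison with the long form. STIP1, BAG2, HSPA9, DNAJB4, HSPA4L, CCT4 and TCP1 also have the short motif alone and are not shown.

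DNAJB1: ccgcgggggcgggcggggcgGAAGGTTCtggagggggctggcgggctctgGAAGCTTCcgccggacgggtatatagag
HSPB8: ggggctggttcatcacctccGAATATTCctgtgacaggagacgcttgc
HSPB1: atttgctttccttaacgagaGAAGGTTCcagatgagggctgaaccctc
CCT2: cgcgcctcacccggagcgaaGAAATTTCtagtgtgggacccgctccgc

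These stretches lie at chr19:14518417-14518494 (minus strand) for DNAJB1, chr12:119178823-119178870 (plus) for HSPB8, chr7:76302471-76302518 (plus) for HSPB1 and chr12:69585780-69585827 (plus) for CCT2. Counted by gene, 17 of the 36 members (47.2%) had either short motif, against 16.2% of 27305 genes. It was present for 9 of 12 heat-inducible genes with a window, 3 of 8 constitutive genes, 2 of 6 cochaperones, 3 of 7 CCT genes and 0 of 2 prefoldin genes. The long motif was present for 4 of 12 heat-inducible and 2 of 8 constitutive genes, and for 0 of 6, 0 of 7 and 0 of 2 in the other classes in that order. The 6 measured members with a long motif had log2 ratios from 0.06 to 0.14 with a median of 0.12, inside the range of -0.38 to 0.63 of the 27 members without one, whose median was 0.10. A match is a run of letters and not a bound site.

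The small heat shock proteins hold unfolding proteins in a state from which HSP70 can recover them. HSPB8, which works in a complex with BAG3, read 119.7 in control and 185.4 in knockdown, the largest ratio of the list (0.63, 1.55-fold). Its other probe set was above the floor only in the knockdown array and gave a bound of 0.10. CRYAB, encoding alpha-B crystallin, read 93.2 against 135.5 (0.54, 1.45-fold) on its only probe set. Both genes are dim, in the range where signals scatter most, and neither was measured when the floor was raised to 387.3. HSPB1, encoding HSP27, was bright at 17314 in control and 19314 in knockdown, a ratio of 0.16.

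As deposited, the inducible partners of HSP70 and HSP90 were all above 0 on their brightest probe sets. The ratio exceeded 0.155 for BAG3, DNAJB4, HSPH1 and DNAJB1 and was smaller for the other 4 of these 8 genes. HSPH1 and DNAJB1 were under 0.155 after loess (0.11 and 0.14) and after quantile normalization (0.10 and 0.13). BAG3, the HSP70 cochaperone that steers clients to autophagy, read 14514 in control and 17702 in knockdown (0.29, 1.22-fold). Its ratio was 0.24 after loess, 0.25 after quantile normalization and 0.26 after median centring, each just under 1.2-fold. DNAJB4 and DNAJB1, J proteins that deliver clients to HSP70, read 6003 against 6975 (0.22) and 9589 against 10794 (0.17) in control and knockdown. Their other probe sets gave 0.32 and 0.24. HSPH1, which recharges HSP70 with ATP, read 20204 against 22751 (0.17), with 0.10 and -0.11 on its other probe sets.

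Smaller ratios were found for the rest of this group. DNAJA1, another J protein, read 25410 in control and 27795 in knockdown (0.13). CHORDC1, a partner of HSP90, read 6553 against 7057 (0.11), and its other probe set, at 74.9 against 124.2, gave 0.73. HSPA4L, a relative of HSPH1, had 0.06, and -0.02 on its other probe set. HSP90AA1, the inducible cytosolic HSP90, read 40374 against 42140 (0.06), and its 4 probe sets lay between 0.03 and 0.06. Its ratio was -0.03 after loess and -0.04 after quantile normalization. These signals are close to the highest on the arrays, 44957 and 47601, and whether signals of that size were compressed was not tested.

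The mitochondrial members were all above 0. The chaperonin HSPD1 read 38090 in control and 41663 in knockdown (0.13), and its co-chaperonin HSPE1 read 21234 against 23784 (0.16). After loess and quantile normalization HSPD1 was at 0.04 and 0.01, and HSPE1 at 0.10 in both. The other measured probe sets of HSPD1 gave 0.07 to 0.31. The nearest listed starts of HSPD1 and HSPE1 lie 105 bases apart on opposite strands of chromosome 2. HSPA9, the HSP70 of the matrix, read 11660 against 13139 (0.17), and its other probe sets gave 0.07 and 0.29. DNAJA3, the J protein that serves it, had 0.11 and 0.10 on its probe sets. TRAP1, the HSP90 of mitochondria, was the lowest at 1548 against 1570 (0.02). The 5 genes had a median of 0.13, and 0.10 after loess or quantile normalization.

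The constitutive cytosolic members had a median of 0.11 with 6 of 6 above 0. HSP90AB1, the steady HSP90, read 23441 in control and 25760 in knockdown (0.14), and 0.11 and 0.07 on its other probe sets. HSPA14, which works at the ribosome, had 0.14, and -0.15 on its dimmest probe set. The J proteins DNAJB6, DNAJC7 and DNAJA2 had 0.12, 0.10 and 0.03. For DNAJC7, which also binds HSP90, a dim probe set at 230.8 against 421.2 gave 0.87. HSPA4, an exchange factor of HSP70, read 6968 against 7282 (0.06), but its other 3 probe sets spread from -0.26 to 0.40. Brightest probe sets of this group stayed within 0.03 to 0.14, while dimmer ones of HSPA4 and HSPA14 lay on the other side of 0.

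**Figure D3:**
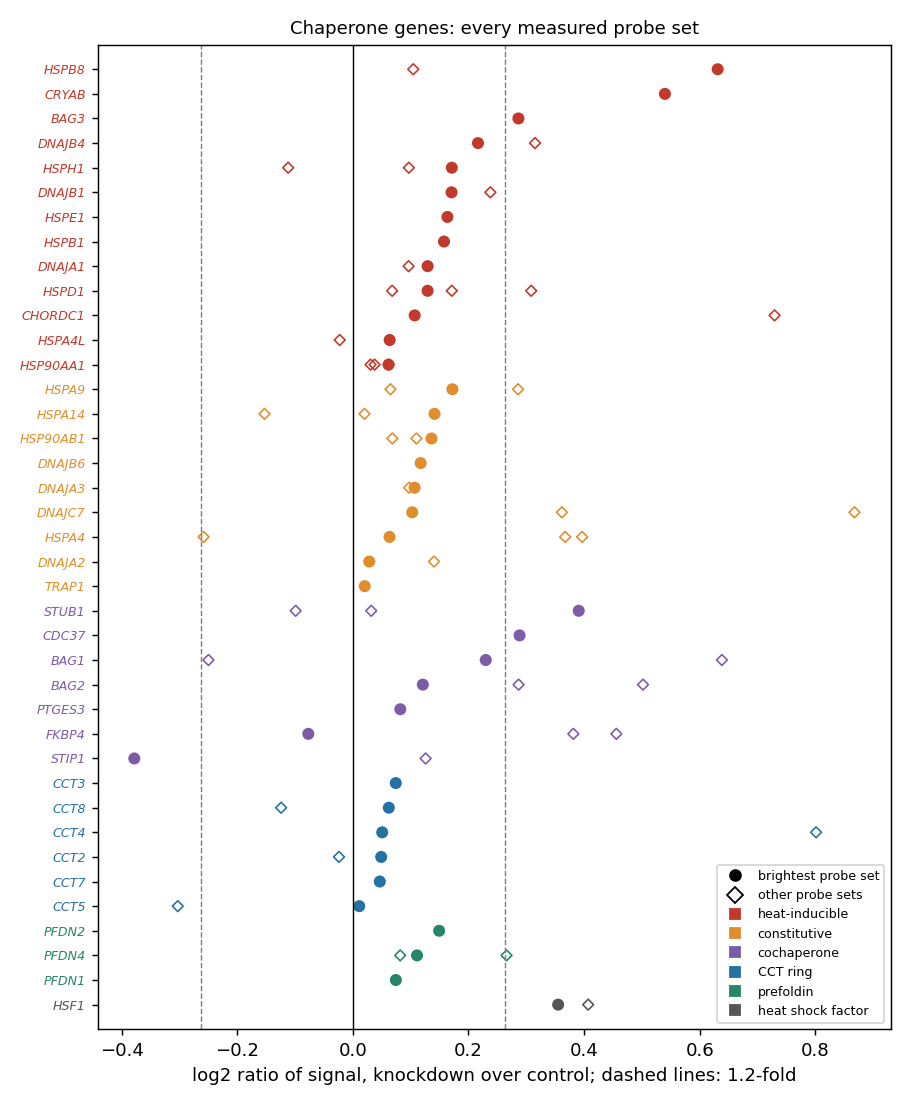
Log2 ratio of knockdown over control for every measured probe set of the chaperone genes, with the brightest probe set of a gene as a filled circle and the others as open diamonds, and 1.2-fold marked by dashed lines. Filled circles of the CCT ring lie between 0.01 and 0.07, and those of the cochaperones between -0.38 and 0.39.

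The cochaperones were the most scattered class, with ratios from -0.38 to 0.39 and a median of 0.12 over 7 genes. STIP1, also called HOP, which links HSP70 to HSP90, read 5058 in control and 3892 in knockdown (-0.38, 1.3-fold lower). Its other probe set read 1522 against 1661 and gave 0.13, so the probe sets disagreed in direction. STUB1, also called CHIP, a ubiquitin ligase that marks chaperone clients for the proteasome, read 6278 against 8231 (0.39, 1.31-fold higher), while its other probe sets gave -0.10 and 0.03. CDC37, which brings kinases to HSP90, read 1483 against 1811 (0.29, 1.22-fold higher) on its only probe set.

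BAG1, an exchange factor of HSP70, read 786.5 in control and 922.4 in knockdown (0.23), and its other probe sets gave 0.64 and -0.25. BAG2, which inhibits STUB1, had 0.12, 0.29 and 0.50. The immunophilin FKBP4 read 2786 against 2641 (-0.08), while its next probe set read 1257 against 1637 (0.38). PTGES3, or p23, which stabilises the closed form of HSP90, read 29496 against 31224 (0.08). For 4 of these 7 genes, STIP1, STUB1, BAG1 and FKBP4, the probe sets thus lay on both sides of 0, with at least 1 of them 1.2-fold apart. How often this happens over all genes with several probe sets was not counted, so it is not read as a trait of cochaperones.

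The CCT ring had the smallest class median as deposited. CCT3 read 18533 in control and 19513 in knockdown (0.07), CCT8 18611 against 19432 (0.06) and CCT4 21265 against 22028 (0.05). CCT2 read 19339 against 20008 (0.05), CCT7 11355 against 11728 (0.05) and CCT5 11995 against 12088 (0.01). All 6 brightest probe sets were thus above 0 within a span of 0.01 to 0.07, and the SD over the 6 genes was 0.02. The median was 0.05 as deposited but lay at -0.003 after loess and -0.01 after quantile normalization, when 3 of 6 and 1 of 6 were above 0. Dimmer probe sets differed more, from -0.30 for CCT5 to 0.80 for CCT4, at signals of 244.0 against 197.8 and 76.6 against 133.5.

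Prefoldin was measured on 3 subunits. PFDN2 read 10164 in control and 11272 in knockdown (0.15), PFDN4 7558 against 8163 (0.11) and PFDN1 1923 against 2024 (0.07). The median was 0.11, and 0.09 after loess or quantile normalization. Of the heat shock factors HSF1 alone was measured, at 765.2 against 978.8 (0.36, 1.28-fold higher), and its dim second probe set gave 0.41 at 50.6 against 67.1. The ratio of HSF1 was 0.37 after loess and after quantile normalization.

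Set against each other, the heat-inducible class had the highest median, as deposited, of the classes with more than 1 measured gene, 0.16 over 13 genes that all lay above 0. It exceeded the CCT ring by 0.11, and 11 of the 13 genes lay above the highest CCT gene (0.07). The share of all measured genes above that value was not counted, so the separation is not read as particular to the class. The median of the brightest decile of all measured genes was 0.04. The heat-inducible median stayed above the CCT median in all 11 alternatives, by 0.06 to 0.17. Not all of these could move it. Median centring takes the same value from every gene, and the floor at the 25th percentile and the pseudocount left the difference at 0.11. Heat-inducible genes exceeded prefoldin by 0.05, the constitutive members by 0.06 and the cochaperones by 0.04. After loess these differences were 0.01, -0.0001 and -0.03, and after quantile normalization 0.02, -0.003 and -0.03, so the order against the constitutive members and the cochaperones turned with the scaling.

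Among other proteostasis genes, 75 of 92 listed were measured. Of these 39 lay above 0 (52.0%, against 52.2% of all measured genes), with a median of 0.02. At least 1.2-fold higher were 9 (12.0%, against 16.6% of all measured genes) and lower 4 (5.33%, against 15.5%). HSPA1A and HSPA1B, the classic inducible HSP70 genes, and HSPA8, the constitutive one, appear only on probe sets that name several genes and have no value. HSPA6, an inducible HSP70, read 10374 in control and 14263 in knockdown (0.46, 1.37-fold higher), and 0.49 on its other probe set. Signal of its near-identical copy HSPA7 cannot be told apart from it here. The other 4 measured HSP70 genes of this further list lay below 0, from -0.17 for HSPA13 to -0.07 for HSPA2.

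HMOX1, the heme-degrading enzyme induced by oxidative stress, read 4290 in control and 7322 in knockdown (0.77, 1.71-fold higher). TBCC, a tubulin folding cofactor, read 898.9 against 1416 (0.66), and AHSA2P, related in sequence to the HSP90 activator AHSA1, 2347 against 3228 (0.46, and 0.44 on its next probe set). On the lower side DNAJB12, a J protein of the endoplasmic reticulum membrane, read 1585 against 1191 (-0.41), and DNAJC6, or auxilin, which uncoats clathrin vesicles, 2597 against 1974 (-0.40). The HSP90 adaptor PIH1D1 read 1455 against 1211 (-0.26) and the immunophilin FKBP5 1795 against 1510 (-0.25, and 0.06 on its other probe set). CCT6A, a further subunit of the ring that is not among the members, read 13641 against 14870 (0.12), above the 0.07 of the highest CCT member, and 0.0003 on its other probe set. After loess its ratio was 0.08, against at most 0.02 for the CCT members. With CCT6A counted in the ring, 10 of the 13 heat-inducible genes would lie above its highest gene, again with no share of all genes counted. PFDN5, a further prefoldin subunit, read 10208 against 11014 (0.11, and 0.09 on its other probe set), within the span of the prefoldin members.

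**Figure D4:**
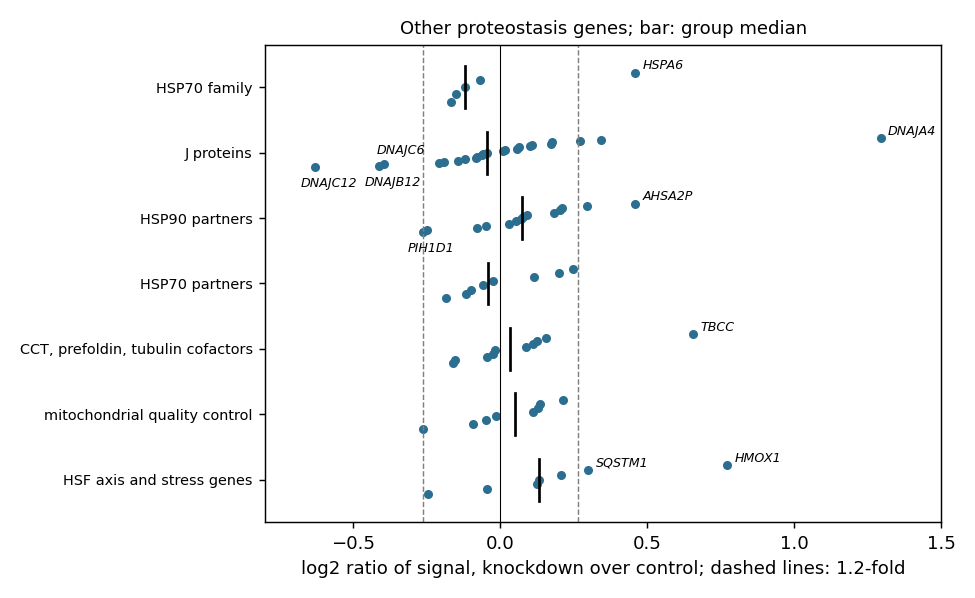
Log2 ratio of knockdown over control for 75 further proteostasis genes, each a point, by role, with the group median as a bar and 1.2-fold as dashed lines. Medians lie between -0.12 for the HSP70 family and 0.13 for genes of the HSF axis and stress.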

How the data were processed

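Groups were taken from the sample titles. RNA was labelled from 250 ng, per the labels' protocols. The deposited values are linear probe-set intensities for which the authors used MAS5, as the submitters' processing notes state, with no version given in the sources used here. Of 54675 probe sets 62 were controls, 41097 are listed with 1 gene and 1801 with several, and 11777 are not listed. The mean after trimming 2% at each end was 500.1 in both arrays, so no further scaling was applied.

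Signals under 47.9 were raised to that floor, and each gene took the probe set, among those measured, whose mean log2 signal was highest. Of the 39 used for members, 21 are of the _s_at or _x_at kind, which can share probes with other transcripts and pseudogenes. Passing 1.2-fold describes a size and tests nothing. Signals in both arrays are printed for members that far apart, for the CCT ring and prefoldin, and for members whose probe sets disagreed in sign with 1 of them that far apart, and of the other proteostasis genes for up to 4 per direction with the largest ratios at signals above 387.3, plus FKBP5, CCT6A and PFDN5 (HSPA8 was also chosen but has no value); further signals are given for context. Members, classes and lists were chosen with earlier results of these data known. Alternatives were other scalings (median, quantile, loess with a span of 0.3), floors at the 25th (11.3) and 75th (387.3) percentiles, a pseudocount of 1, and other probe sets. The calculation was also run on simulated data with planted changes. Their noise was smaller than the spread between probe sets given above, and they had no trend on signal. That run checks the calculation only and cannot show how far small ratios can be trusted. Python 3.11.15, pandas 2.3.3 and statsmodels 0.14.6 were used.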

Additional observations from a re-analysis of the deposited data

How the results depend on the processing

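The median over all members stayed between 0.09 and 0.14 in all 9 alternatives, and that of the heat-inducible class between 0.10 and 0.17. With probe sets averaged, 10 of 39 members were at least 1.2-fold higher and 0 lower, against 2265 and 1864 of all 12931 genes. Without _x_at and _s_at probe sets 6 of 28 were higher and 0 lower, against 1916 and 1721 of 10144 genes. At 1.5-fold 1 was higher and 0 lower, and at 2-fold 0 and 0. On the second brightest probe set 22 of 27 members were above 0, against 50.9% of all genes that had one. There the cochaperone median was 0.29 and the CCT median -0.0740, STIP1 was at 0.13 and STUB1 at -0.10. The CCT median was -0.00967 after quantile normalization and -0.00317 after loess. The heat-inducible class minus the constitutive one was -0.00283 after quantile normalization, -7.96e-05 after loess and -0.000497 on the second brightest probe set. Minus the cochaperones it was -0.0306 and -0.0276 after these scalings, -0.0369 with probe sets averaged, -0.19 on the second brightest and -0.0166 without _x_at and _s_at probe sets, and minus prefoldin -0.0448 without them. The causes were not tested. No paired analysis was possible because there was 1 array per group. Signals near the floor limit HSPB8 and CRYAB.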

Other observations

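HSPB8, BAG3 and STUB1 are known to act in 1 complex that sends misfolded clients to autophagy, with SQSTM1, or p62, as the receptor that links them to the autophagosome. As deposited, all 4 genes were at least 1.2-fold higher on their brightest probe sets, a size reached by 16.6% of all measured genes, SQSTM1 with 11407 in control and 14036 in knockdown (0.30), and its other 4 probe sets gave 0.42 to 0.95. BAG3 and SQSTM1 fell short of that size after loess (0.24 and 0.26) and after quantile normalization (0.25 and 0.24). STUB1 was at -0.10 and 0.03 on its other probe sets, and HSPB8 had a bound of 0.10 on its other one. The 4 genes were put together after their values were seen, and no test was made.

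DNAJA4, a J protein of HSP70, read 63.9 in control and 156.7 in knockdown (1.29, 2.45-fold higher) on its only measured probe set, near the floor of 47.9. DNAJC12, another J protein, read 426.8 against 275.7 (-0.63), and 0.04 and -0.23 on its other probe sets. Both, like SQSTM1, were named after their values were seen.

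Besides its brightest, 27 members had 43 further measured probe sets. Of these 31 had the sign of the brightest, a share that was not counted over all genes. Above 0 were 34 of the 43, against 52.0% of all further probe sets of measured genes. Among the 17 of the 43 with a signal at or below 387.3, 10 were at least 1.2-fold higher and 1 lower, where 29.7% and 23.3% of all such probe sets of measured genes were. Of the 26 with both signals above 387.3, 6 were higher and 0 lower, against 9.37% and 10.6%.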
